A study of Mus musculus with 12 samples.

Results

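The genes S100a8, S100a9, Retnlg, Ngp, Camp, Csf3r, Cxcr2, Mmp25, Ly6g, and Mpo are markers of neutrophils, and their RNA was followed in cerebral vessels during the first hours of systemic inflammation. The 10 genes were chosen by name, with earlier results of these data known, and they are 10 of the 54331 genes of the normalized gene table. All 10 were also found among the 54119 genes for which transcript estimates could be summed. RNA-seq was performed on vessels isolated from the forebrain of C57BL6 wild-type mice aged 2 to 3 months, killed at 15 min, 30 min, or 4 h from an intraperitoneal injection of lipopolysaccharide (LPS, a bacterial cell wall component that starts systemic inflammation) at 10 mg/kg, or given PBS. Each of the 4 groups had 3 libraries, and each library pooled vessels of 1 male and 1 female mouse, so a group stood for 6 mice. For the PBS mice, the sources used here give no interval between injection and killing. All mice were perfused through the heart with ice-cold PBS, the meninges were removed, and the vessels were the material held back on a nylon mesh. Beyond the perfusion, the described isolation had no step against blood cells held in the vessels, and no cells were sorted for these libraries.

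Neutrophils are short-lived white blood cells that leave the bone marrow fully armed with granules. Their granule proteins are made in order during maturation, first myeloperoxidase and the serine proteases of the primary granules, then the cathelicidins and lactoferrin of the secondary granules, and last the gelatinases. In systemic inflammation the endothelium displays selectins and chemokines that stop circulating neutrophils on the vessel wall, and brain vessels are among the beds where this takes place.

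At 4 h after LPS, RNA of 7 of the 10 neutrophil genes was higher than in PBS: S100a9, S100a8, Retnlg, Ngp, Camp, and, less steeply, the receptors Csf3r and Cxcr2. The rises ran from 4.86-fold for Cxcr2 to 168-fold for Ngp. Retnlg, Ngp, and Camp entered the test only through their 4 h libraries and so had to differ there; of the 5 tested genes that passed the filter on low counts without those libraries, 4 were higher. Mmp25 did not pass the test, and Ly6g and Mpo had too few fragments to be tested. At 15 min S100a9 alone was called, and it was lower than in PBS, to 0.270 of the PBS level. At 30 min none of the 10 was called. A gene was called when edgeR put its change beyond 1.5-fold at an adjusted p under 0.05 over all 19150 genes tested, and at 4 h against PBS 32.7% of all genes tested were called and 19.0% were called as higher. Groups of libraries did not overlap in CPM (depth-corrected counts, with TMM scaling) for the 7 called of 8 genes tested at 4 h, where 70.9% of all genes tested did not. The way Retnlg, Ngp, and Camp entered the test bears on this count as well. Fewer cells of a type and less RNA per cell cannot be told apart in libraries of whole vessels.

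**Figure D1:**
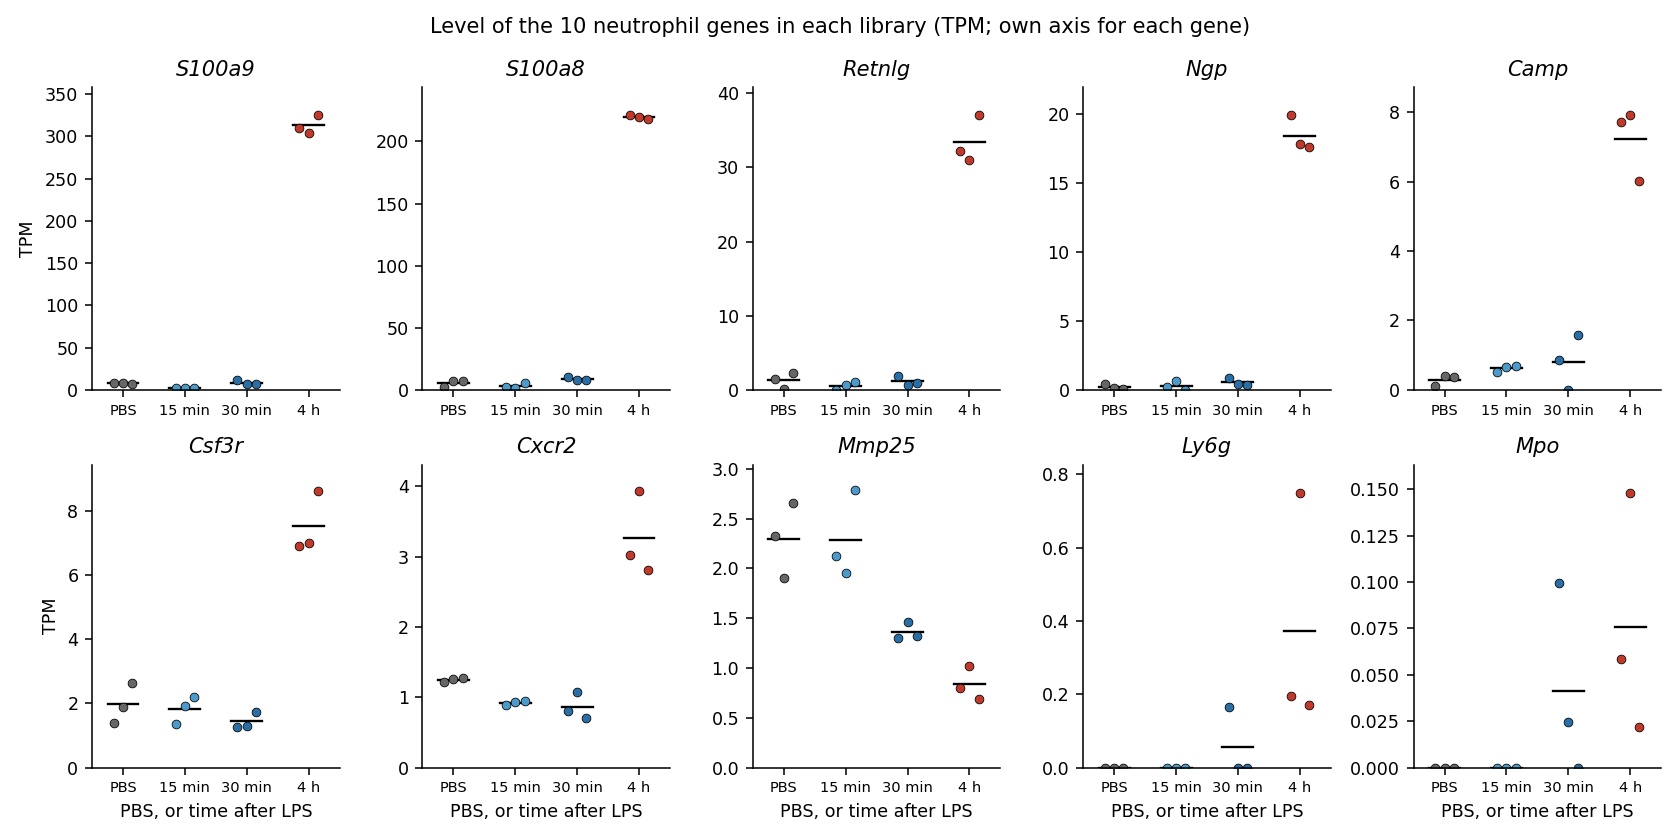
Level of each of the 10 genes in TPM (vertical axis, a separate linear scale per gene from 0) in the 3 libraries of PBS and of each time after LPS (15 min, 30 min, 4 h). Points are libraries and bars are group means; at 4 h S100a9 reached 304 to 325 TPM and S100a8 218 to 221 TPM, while Mmp25 lay at 0.687 to 1.02 TPM and Mpo at 0.0217 to 0.148 TPM.

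The stretches of DNA just before the start of 4 of the genes are shown because S100a8, S100a9, and Ngp had the largest fold rises and Mmp25 was the tested gene with no called rise. The sequences are from RefSeq on GRCm38.p6, 5′ to 3′ on the strand of the gene, and each stops before the first base of a coding transcript of the gene in the GENCODE annotation. S100a8 lies on the plus strand (chr3:90668821-90668977), S100a9 on the minus strand (chr3:90695722-90695971), Ngp on the plus strand (chr9:110419558-110419746), and Mmp25 on the minus strand (chr17:23645278-23645519). Capitals mark matches on either strand to the C/EBP core TTGCNNAA, the PU.1 core GAGGAA, the TATA box TATAAA, the AP-1 motif TGANTCA, or the NF-kB consensus.
S100a8: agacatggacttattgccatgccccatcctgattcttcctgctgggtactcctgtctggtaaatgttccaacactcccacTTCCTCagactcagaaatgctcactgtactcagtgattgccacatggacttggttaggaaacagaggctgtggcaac
S100a9: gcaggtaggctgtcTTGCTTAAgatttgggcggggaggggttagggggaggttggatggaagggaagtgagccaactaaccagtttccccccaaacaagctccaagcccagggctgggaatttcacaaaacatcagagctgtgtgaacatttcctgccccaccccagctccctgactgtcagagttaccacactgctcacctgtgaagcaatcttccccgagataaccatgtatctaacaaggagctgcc
Ngp: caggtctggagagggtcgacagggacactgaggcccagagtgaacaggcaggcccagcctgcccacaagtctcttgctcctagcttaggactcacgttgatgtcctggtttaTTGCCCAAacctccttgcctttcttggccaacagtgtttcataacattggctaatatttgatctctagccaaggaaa
Mmp25: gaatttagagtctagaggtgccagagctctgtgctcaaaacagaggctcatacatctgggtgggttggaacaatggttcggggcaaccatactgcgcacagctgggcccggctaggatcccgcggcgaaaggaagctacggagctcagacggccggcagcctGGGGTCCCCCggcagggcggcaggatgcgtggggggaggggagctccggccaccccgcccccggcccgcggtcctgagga
In the printed stretches, S100a9 and Ngp carry a C/EBP core, S100a8 a PU.1 core on the opposite strand, and Mmp25 an NF-kB consensus. All 10 genes had an entry, and over the full 250 bases before the RefSeq start 4 of 10 genes held the C/EBP core (S100a9, Ngp, Ly6g, and Retnlg) against 9.56% of 32851 mouse promoter windows searched alike. The PU.1 core was in 6 of 10 against 23.3%, the TATA box in 2 of 10 against 12.4%, the NF-kB consensus in 1 of 10 against 3.90%, and the AP-1 motif in 0 of 10 against 6.75%. In the window of S100a8 a PU.1 core directly abuts the TATA box, outside the printed stretch. A match is a description of letters and not a shown binding site.

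S100a8 and S100a9 encode the subunits of calprotectin, the most abundant protein of the neutrophil cytosol, which monocytes also make. The genes are neighbors on chromosome 3 of GRCm38 (S100a8 at 90668978 to 90670035, S100a9 at 90692632 to 90695721), with 22596 bases between them. S100a9 was assigned 33, 38, and 30 fragments in the PBS libraries, 10, 8, and 8 at 15 min, 51, 33, and 32 at 30 min, and 1195, 1330, and 1386 at 4 h. All 3 libraries of the 4 h group stood far above the other 9, and all 3 of the 15 min group stood below every other library. S100a9 rose at 4 h by a log2 fold change of 6.22 (SE 0.109, n = 3 against 3, edgeR adjusted p = 6.63e-23), and its level went from 7.58 ± 0.210 TPM in PBS to 313 ± 10.6 TPM (mean ± SD, n = 3). TPM compares genes per length as shares of a library and is not TMM-scaled, so folds are those of the test and not ratios of TPM.

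S100a8 was assigned 11, 32, and 25 fragments in PBS, 10, 5, and 22 at 15 min, 43, 32, and 30 at 30 min, and 758, 855, and 826 at 4 h. The PBS and 15 min libraries overlapped, whereas the 4 h libraries lay close together and well above the rest. The rise at 4 h was 6.11 on the log2 scale (SE 0.207, n = 3 against 3, edgeR adjusted p = 3.07e-17), from 5.57 TPM in PBS to 220 TPM. The pair made up 88.1% to 88.3% of the summed TPM of all 10 genes in the 4 h libraries, against 60.0% to 72.2% in PBS. The ratio of S100a8 to S100a9 in TPM was 0.671 to 0.723 in the 4 h libraries and 0.944 to 1.08 in the 30 min libraries, while PBS libraries spread from 0.356 to 0.938 and 15 min libraries from 0.696 to 3.12. These ratios were not tested, and before 4 h they rest on few fragments.

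Retnlg encodes a secreted resistin-like protein of neutrophils and lies on chromosome 16. It had 8, 1, and 12 fragments in PBS, 0, 3, and 6 at 15 min, 11, 4, and 5 at 30 min, and 159, 176, and 205 at 4 h. The 9 earlier libraries overlapped throughout, and the 4 h libraries were all higher. Its log2 fold change at 4 h was 5.60 (SE 0.428, n = 3 against 3, edgeR adjusted p = 2.07e-10), to 33.4 ± 3.20 TPM, and it was 6.25 without PBS library 3 and 4.25 in limma on the normalized gene table with 10 added to each value.

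Ngp and Camp encode relatives of the cathelicidin family that are stored in secondary granules, Camp being the mouse cathelicidin antimicrobial peptide. Both genes lie on chromosome 9, on opposite strands and 570129 bases apart. Ngp had 7, 2, and 1 fragments in PBS, 4, 9, and 0 at 15 min, 15, 8, and 6 at 30 min, and 295, 311, and 300 at 4 h. The 4 h libraries were nearly equal to each other and far above all others. The log2 fold change at 4 h was 7.39 (SE 0.398, n = 3 against 3, edgeR adjusted p = 2.38e-13), the largest among the 8 genes tested, and it stood against 10 fragments in the whole PBS group. Without PBS library 1, which held 7 of these, the value was 8.49, and in limma with 10 added it was 5.24. Camp had 1, 4, and 3 fragments in PBS, 5, 5, and 6 at 15 min, 8, 0, and 14 at 30 min, and 60, 71, and 53 at 4 h. Its 30 min libraries held both the lowest and the highest of the 9 earlier counts. Camp rose at 4 h by 5.40 on the log2 scale (SE 0.624, n = 3 against 3, edgeR adjusted p = 2.36e-07), and its value was 3.12 in limma with 10 added. At 4 h Ngp was at 18.5 TPM and Camp at 7.22 TPM. With so few fragments in PBS, the fold of Ngp, Camp, and Retnlg is less precise than that of the S100 genes.

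Csf3r is the receptor for granulocyte colony-stimulating factor, which drives the production and release of neutrophils, and it is also found on monocytes. It had 70.1, 107, and 96.8 fragments in PBS, 76.9, 81.0, and 106 at 15 min, 63.5, 65.5, and 73.5 at 30 min, and 323, 381, and 435 at 4 h. The 3 earlier groups overlapped and the 4 h libraries were all higher. Csf3r rose at 4 h by 3.01 (log2, SE 0.158, n = 3 against 3, edgeR adjusted p = 7.25e-13), from 1.97 to 7.53 TPM. RNA of its ligand Csf3 was at 0.329 TPM in PBS, 0.131 at 15 min, 11.5 at 30 min, and 2270 at 4 h, and was called as higher at 30 min (5.42 on the log2 scale) and at 4 h (13.64). At 30 min the receptor had a value of -0.18 that was not called.

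Cxcr2 is the receptor by which neutrophils sense the chemokines CXCL1, CXCL2, and CXCL5. It had 57.4, 66.6, and 61.1 fragments in PBS, 47.0, 39.4, and 45.5 at 15 min, 40.7, 55.4, and 35.3 at 30 min, and 129, 200, and 138 at 4 h. In CPM, which corrects for depth, all 15 min libraries lay below all PBS libraries, the 30 min libraries overlapped PBS, and the 4 h libraries lay above. Cxcr2 rose at 4 h by 2.28 (log2, SE 0.189, n = 3 against 3, edgeR adjusted p = 8.41e-09), from 1.25 to 3.26 TPM, and its value at 15 min, -0.44, was not called. Cxcl1 and Cxcl2 were called as higher at all 3 times (5.92, 9.59, and 11.22 for Cxcl1, and 5.73, 9.84, and 12.58 for Cxcl2, on the log2 scale), and Cxcl5 at 4 h (7.32). For Cxcl2 at 4 h the normalized gene table gave a smaller log2 ratio of means, 11.94. In TPM, Cxcl1 went from 2.59 in PBS to 148, 1890, and 4010.

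Mmp25 encodes a membrane-anchored matrix metalloproteinase, leukolysin, of neutrophil granules and the neutrophil surface. It had 170, 155, and 196 fragments in PBS, 173, 128, and 203 at 15 min, 102, 116, and 102 at 30 min, and 53, 80, and 53 at 4 h. After correction for depth the 4 h libraries (3.62 to 5.32 CPM) overlapped the PBS libraries (5.23 to 7.48 CPM), and only the 30 min libraries (4.42 to 4.99 CPM) lay wholly below PBS. Mmp25 was not called at any time against PBS, with a log2 fold change at 4 h of -0.54 (SE 0.183, n = 3 against 3, edgeR adjusted p = 0.631). Against a null of no change in place of 1.5-fold its adjusted p at 4 h was 0.0118, and with scaling by library size alone its value was -1.25 with an adjusted p of 3.74e-04, and over all alternatives the value ran from -1.25 to -0.42 and the adjusted p from 3.74e-04 to 1. Library size alone moved the median of all genes tested by -0.71 at 4 h, and relative to the median of all genes Mmp25 stood at -0.53 under either scaling. The gene overlaps AC154766.2 and AC154766.3 on the opposite strand, whose reads cannot be told apart from its own in these libraries, which do not keep strand.

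Ly6g, the surface antigen by which antibodies define mouse neutrophils, had few fragments in any library. It had none in any PBS or 15 min library, 2, 0, and 0 at 30 min, and 2, 9, and 2 at 4 h. The 4 h libraries were all above PBS, but 1 library held 9 of the 13 fragments. Against a floor of 3 fragments over the PBS group, Ly6g was 8.39-fold higher at 4 h. The floor allows for counting error in PBS and not for that in the 13 fragments at 4 h. It did not pass the filter on low counts; with no filter, its edgeR adjusted p at 4 h was 0.0256. Ly6g belongs to a family of similar neighboring genes, so reads shared with a relative could have been assigned elsewhere.

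Mpo encodes myeloperoxidase, the main enzyme of the primary granules, whose RNA belongs to promyelocytes of the bone marrow. It had no fragment in PBS or at 15 min, 4, 1, and 0 at 30 min, and 2, 1, and 1 at 4 h. The 30 min and 4 h libraries overlapped, and no difference was detectable at this depth, which was 18.3 to 25.9 M assigned fragments per library. Mpo did not pass the filter, and it overlaps Gm11505 on the opposite strand, which these libraries cannot separate.

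**Figure D2:**
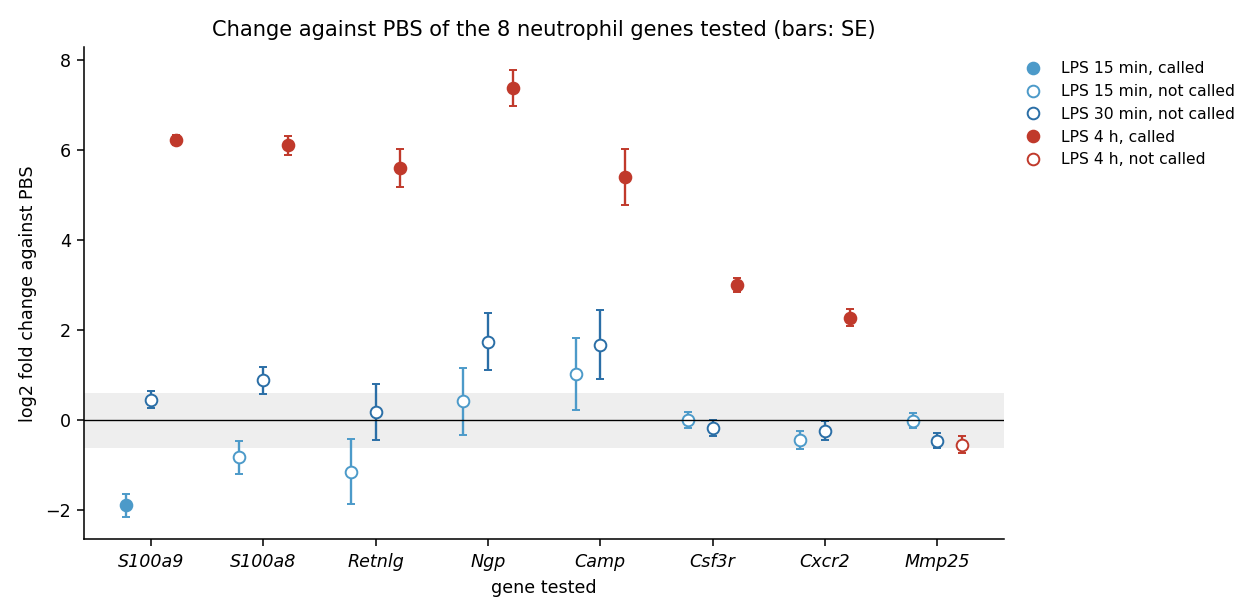
Log2 fold change against PBS (vertical axis) of the 8 genes tested, with SE as bars, at the 3 times after LPS. Filled points were called and open points were not; the gray band spans 1.5-fold in either direction. The 4 h points of 7 genes lie between 2.28 and 7.39, Mmp25 lies at -0.54, and the only filled point before 4 h is S100a9 at -1.89.

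At 15 min, S100a9 fell by 1.89 on the log2 scale (SE 0.257, n = 3 against 3, edgeR adjusted p = 2.43e-04). It was 1 of 8 genes tested, beside 4.18% of all genes called and 0.872% called as lower in that comparison. S100a8 and Retnlg had values of -0.82 and -1.14 that were not called, and Camp and Ngp had values of 1.02 and 0.42 that were not called. The groups did not overlap for 3 of the 8 genes, S100a9, Cxcr2, and Camp, where 49.3% of all genes tested did not overlap. With 10 added to each value of the gene table before taking logs in limma, the S100a9 value was -1.10 and lost its call (adjusted p = 0.130); over all alternatives its value ran from -1.93 to -1.10 and its adjusted p from 2.92e-06 to 0.130. The 5 B cell markers summed to 9.26 to 9.42 TPM in the PBS libraries and to 3.01 to 5.09 TPM at 15 min, with 2 of 5 called as lower, among them Cd79b (-2.80). The 6 T and NK cell markers summed to 3.66 to 4.46 TPM in PBS and 1.53 to 2.83 TPM at 15 min, with 0 of the 5 tested called. Of the 7 platelet markers only Ppbp was called, as lower. Not all sums of blood lists fell: monocyte markers summed to 38.7 to 45.2 TPM in PBS and 52.5 to 57.8 TPM at 15 min. That sum was mostly Ly6c2 (mean 26.4 TPM in PBS and 40.5 at 15 min). Plac8 also went up (1.93 to 3.18), while Ccr2 (1.48 to 0.595), F13a1 (12.1 to 10.2), and Treml4 (0.423 to 0.201) went down. The median log2 fold change of the 5 monocyte genes was -0.23, and 0 were called. Erythroid markers summed to 9740 to 11000 TPM in PBS and 14600 to 15500 TPM at 15 min. Other mature neutrophil genes overlapped, with 5.73 to 7.28 TPM in PBS and 6.57 to 8.63 TPM at 15 min. The part of these blood cells in the result for S100a9 was not tested.

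**Figure D3:**
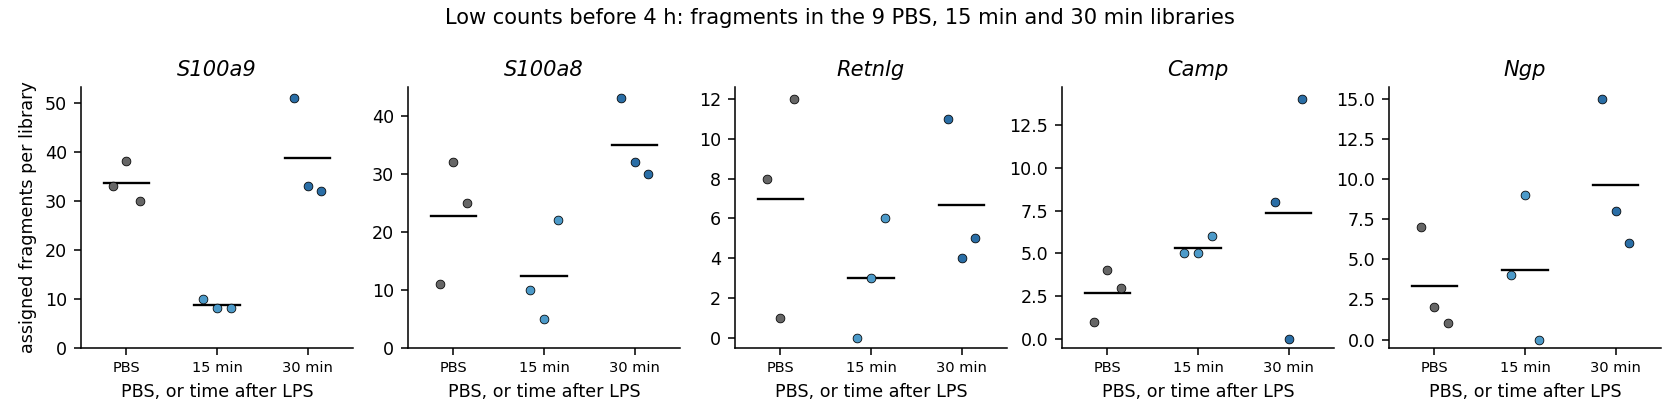
Assigned fragments per library (vertical axis, a separate linear scale per gene) of S100a9, S100a8, Retnlg, Camp, and Ngp in the 9 libraries of PBS, 15 min, and 30 min. Points are libraries and bars are group means; S100a9 had 8 to 10 fragments at 15 min against 30 to 38 in PBS, and Camp had 0 to 14 at 30 min.

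At 30 min, edgeR called 0 of the 8 genes against PBS, beside 4.58% of all genes tested, and DESeq2 called 0. At an unadjusted p under 0.05 with the same fold limit the count was 1, beside 8.22% of all genes. The values furthest from 0 were 1.75 for Ngp (adjusted p = 0.322), 1.68 for Camp (0.652), and 0.89 for S100a8 (0.651). Libraries of the 2 groups did not overlap for S100a8, S100a9, Ngp, and Mmp25, 4 of 8 where 46.7% of all genes tested did not. Against a null of no change, 3 were called: S100a8 and Ngp as higher and Mmp25 as lower. Without library 2 of the 30 min group, in which Camp had no fragment, Camp alone was called (2.26, adjusted p = 0.0496), while over all alternatives its adjusted p ran from 0.0496 to 1.

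Between 15 and 30 min, S100a9 rose by 2.35 on the log2 scale (SE 0.247, n = 3 against 3, edgeR adjusted p = 4.50e-06) and S100a8 by 1.71 (SE 0.335, adjusted p = 0.0102). They were 2 of 8 tested, beside 4.65% of all genes called and 2.69% called as higher. All 3 libraries at 30 min were above all 3 at 15 min for both genes, and groups did not overlap for 3 of 8 where 47.6% of all genes tested did not. The call for S100a8 was lost in DESeq2, in limma on the gene table, and without library 1 or library 2 of the 15 min group or library 1 of the 30 min group, each of which left S100a9 as the gene called. Without library 3 of the 15 min group the S100a8 value was 2.41. Between 30 min and 4 h, 7 of 8 were higher, beside 28.6% of all genes called and 16.9% called as higher. Libraries did not overlap for these 7 of 8, where 67.5% of all genes tested did not. Among the 7, Retnlg, Ngp, and Camp entered the test only through their 4 h libraries and so had to differ there. S100a8, S100a9, Csf3r, Cxcr2, and Mmp25 passed the filter without those libraries, and all of these but Mmp25 were higher. The steps were 5.76 for S100a9, 5.64 for Ngp, 5.42 for Retnlg, 5.22 for S100a8, 3.73 for Camp, 3.18 for Csf3r, and 2.51 for Cxcr2, and Mmp25 had a value of -0.10 that was not called. The step of Camp was 3.14 without library 2 of the 30 min group and 4.60 without library 3. These comparisons share libraries with those against PBS.

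The order of the levels in TPM changed between PBS and 4 h. In PBS, S100a9 was highest (7.58), then S100a8 (5.57), Mmp25 (2.30), Csf3r (1.97), Retnlg (1.28), Cxcr2 (1.25), Camp (0.294), and Ngp (0.199). The libraries of neighbors in this order overlapped from Mmp25 through Cxcr2 and between Camp and Ngp. At 4 h the order was S100a9 (313), S100a8 (220), Retnlg (33.4), Ngp (18.5), Csf3r (7.53), Camp (7.22), Cxcr2 (3.26), Mmp25 (0.834), Ly6g (0.372), and Mpo (0.0760). Only Csf3r and Camp, and Mmp25 and Ly6g, overlapped with their neighbor. Summed over the 10 genes, the libraries held 17.2 to 23.5 TPM in PBS, 9.42 to 15.2 TPM at 15 min, 20.0 to 29.0 TPM at 30 min, and 593 to 616 TPM at 4 h.

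Most of the genes were read from 1 transcript. Camp, Ngp, and Retnlg have 1 annotated transcript each, and all fragments of Cxcr2 were assigned to Cxcr2-202 in every group. S100a9-202 held 3.66% of S100a9 fragments in PBS and 16.4% at 4 h, a difference that was not tested. Csf3r-202 held 14.6 fragments over the PBS libraries and 148 over the 4 h libraries, beside 249 and 984 for Csf3r-201. The values of the normalized gene table followed the summed fragments: S100a9 was at 26.2 to 27.7 normalized counts in PBS and 2010 to 2150 at 4 h, and Ngp at 0.846 to 5.83 and 446 to 495. Csf3r was at 55.0, 74.9, and 106 normalized counts in PBS, a wider spread than in CPM (2.62, 3.61, and 3.70), and at 498 to 631 at 4 h.

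Of 18 other genes of mature neutrophils, 15 were tested and 14 were higher at 4 h, with a median log2 fold change of 6.28, or 5.18 with genes absent from PBS set at their lower bound, beside -0.01 for all genes tested. Of the 15, 8 passed the filter on low counts only through their 4 h libraries and had to differ there, among them Cd177, Wfdc21, Il1r2, and Trem1. The other 7 passed without those libraries, and 6 of them were higher. Slfn4, a Schlafen family gene of myeloid cells that interferon also induces, went from 16, 26, and 17 fragments in PBS to 9384, 11559, and 10877 at 4 h. Cd177, a neutrophil surface protein, had no fragment in PBS and 91, 81, and 65 at 4 h, which was 153-fold higher against that floor. Wfdc21 likewise had none in PBS and was 127-fold higher against the floor, which allows for no counting error at 4 h. The tested gene that was not called was Itgb2l (-0.71, but a log2 ratio of means of 0.06 in the normalized gene table), and Cxcr1, Stfa2l1, and Mrgpra2a were not tested. At 15 min Asprv1 was higher (1.19).

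**Figure D4:**
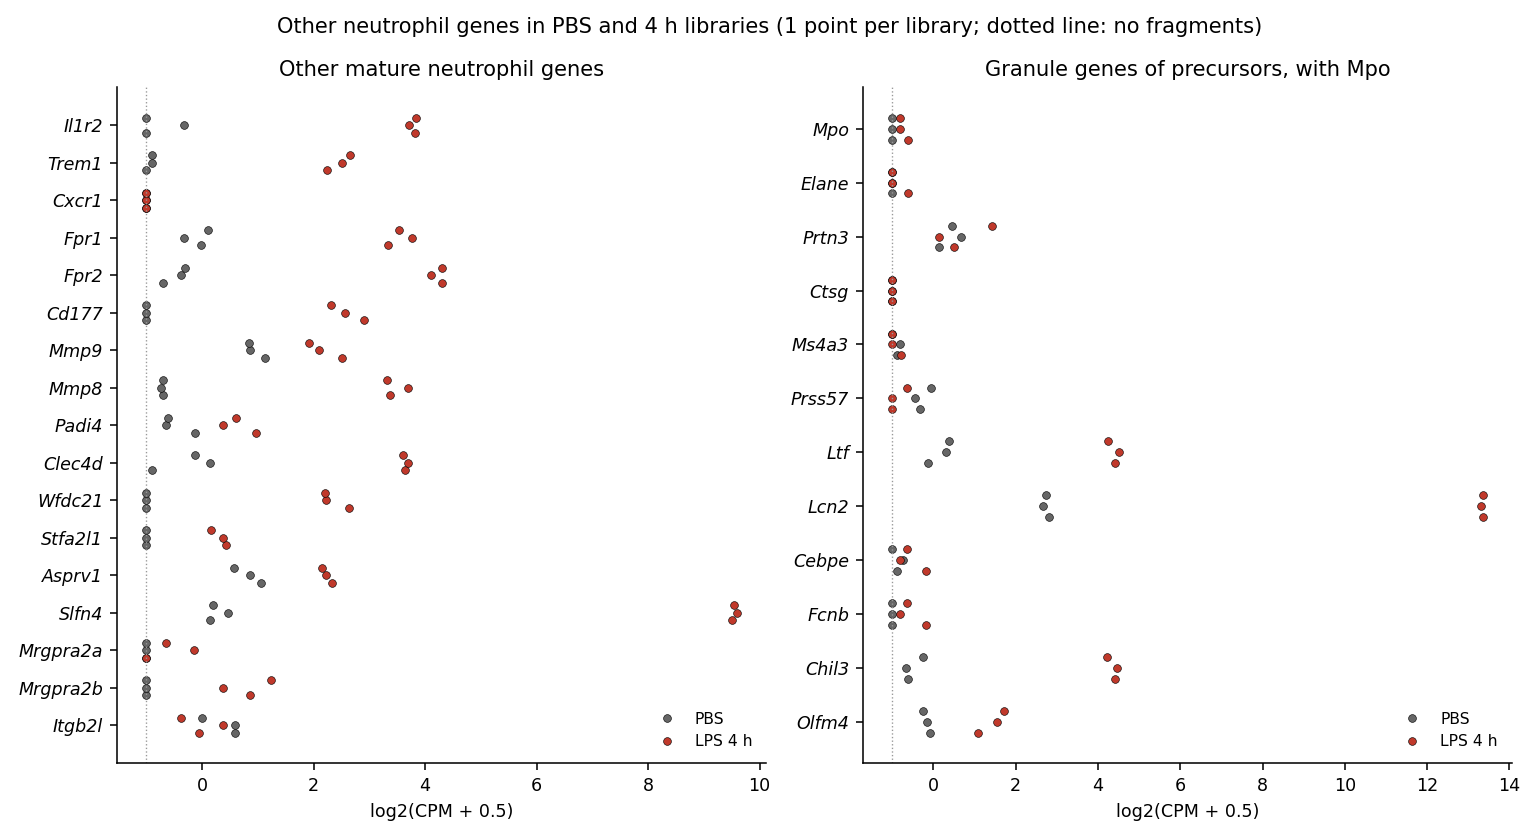
Level of other mature neutrophil genes and of Mpo with 11 granule genes of neutrophil precursors, as log2(CPM + 0.5) on the horizontal axis, in the 3 PBS and the 3 LPS 4 h libraries. Each point is a library and the dotted line marks no fragments; Ltf, Lcn2, Chil3, and Olfm4 lie to the right at 4 h, while Mpo, Elane, and Ctsg lie on or near the line in both groups.

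Granule genes made by neutrophil precursors did not move as a single group. The list held 11 genes, 6 were tested, and 4 were higher at 4 h: Lcn2 (10.70 on the log2 scale), Chil3 (6.58), Ltf (4.96), and Olfm4 (2.50). Chil3 passed the filter only through its 4 h libraries. Ltf encodes lactoferrin of the secondary granules and had 11, 22, and 21 fragments in PBS and 271, 334, and 269 at 4 h. Chil3 encodes a chitinase-like protein and had 4, 4, and 9 in PBS and 270, 324, and 267 at 4 h. Lcn2, which encodes lipocalin and is made by endothelium and astrocytes as well, was called as higher already at 15 min (1.90) and 30 min (6.03) and reached 13000 TPM at 4 h. Of the serine protease genes of the primary granules, Elane had 2, 0, and 0 fragments at 4 h and Ctsg had none in any library, while Prtn3 was not called (0.53, adjusted p = 0.666) with 16.1, 32, and 23 fragments in PBS and 12, 9, and 32 at 4 h. Prss57 had 28 fragments in all PBS libraries together, 2 at 4 h, and a value of -2.68 that was not called (adjusted p = 0.0552).

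Markers of other blood cells are read beside the 19.0% of all genes tested that were called as higher and the 13.8% called as lower at 4 h. All 7 erythroid genes were higher at 4 h, with 1.5 for the hemoglobin gene Hba-a1 and 3.69 for Slc4a1 on the log2 scale, and the list summed to 9740 to 11000 TPM in PBS and 16300 to 17100 TPM at 4 h. Without the 4 h libraries 6 of the 7 passed the filter, and all 6 were higher. At 15 and 30 min 2 and 4 of these 7 were higher. Of 5 monocyte genes 3 were higher at 4 h, Plac8 (5.61), Treml4 (2.42), and Ly6c2 (1.10), and the list summed to 38.7 to 45.2 TPM in PBS and 94.5 to 106 TPM at 4 h. Ccr2, the chemokine receptor that defines inflammatory monocytes, was not called. Of 9 genes shared by leukocytes 6 were higher at 4 h, with 2.71 for Fcer1g, 2.51 for Itgam, and 2.40 for Cd52. Of 7 platelet genes 2 were higher, Gp1bb (1.53) and Pf4 (0.92), of 5 B cell genes 1 was lower, Cd79a (-1.12), and of 5 tested T and NK cell genes 1 was lower, Cd3e (-2.63). These shares lie near those of all genes tested, and the Gp1bb libraries of PBS and 4 h overlapped. For Gp1bb the normalized gene table gave a log2 ratio of means of 0.93. The part of monocytes and of blood left in the vessels in the rises of the neutrophil genes was not tested.

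**Figure D5:**
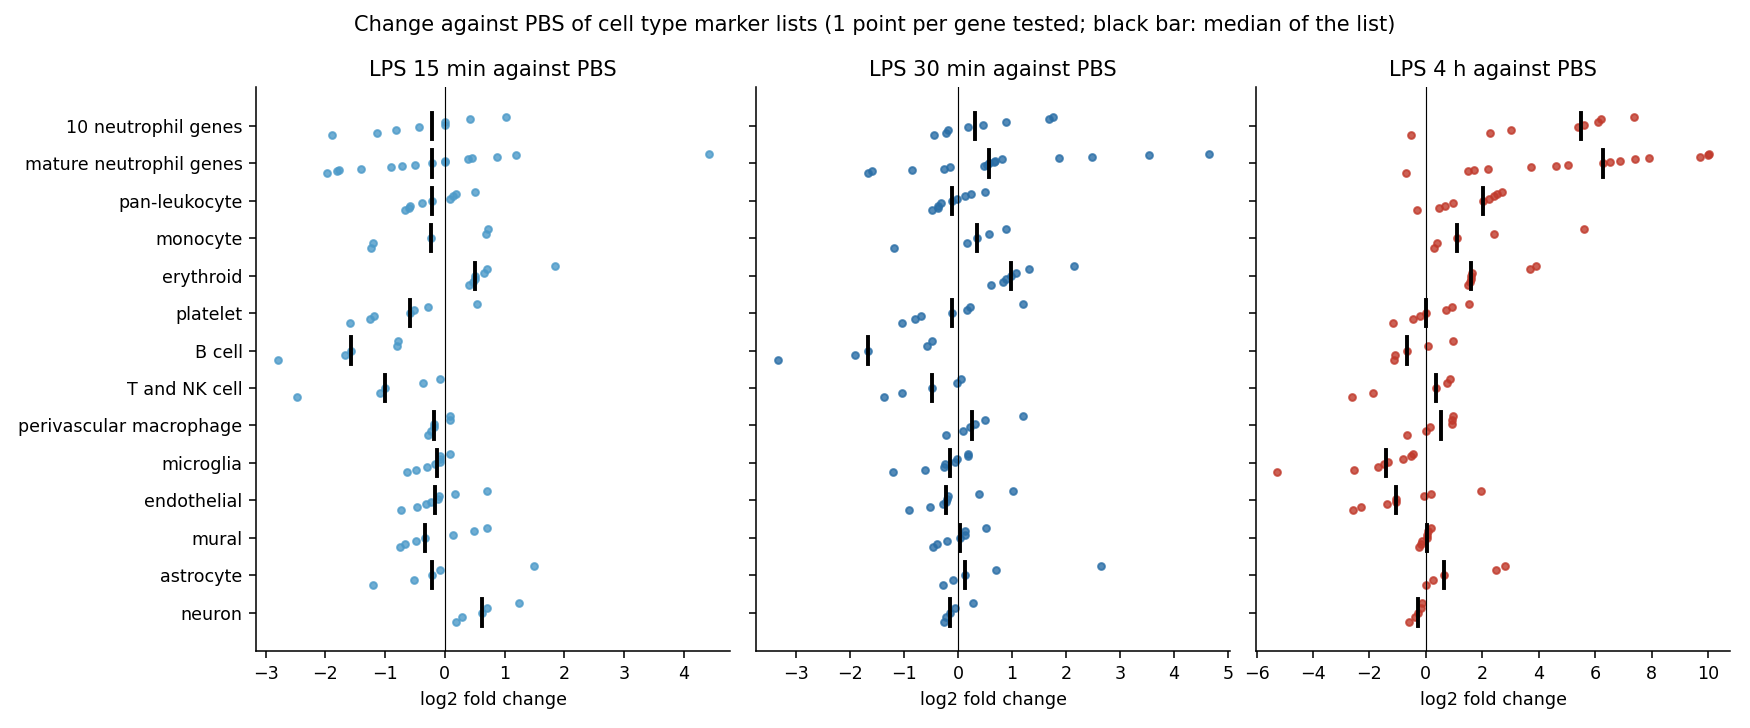
Log2 fold change against PBS (horizontal axis) of every tested gene of 14 lists, in 1 panel for each time after LPS. Each point is a gene and the black bar is the median of the list; at 4 h the median was 5.50 for the neutrophil genes tested, 6.28 for other mature neutrophil genes, 1.60 for erythroid genes, and -1.42 for microglia genes. These medians include genes that passed the filter only through 4 h libraries, 3 of the 8 neutrophil genes tested and 8 of the 15 other mature neutrophil genes. Genes with no fragment in PBS are drawn at their fitted value, which is no bound.

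The counts for cells of the vessel wall and brain stand beside 32.7% of all genes tested called at 4 h, 4.58% at 30 min, and 4.18% at 15 min, and nothing particular to a list is read from them. The 8 endothelial markers were all present and summed to 10200 to 10400 TPM in PBS and 3960 to 4010 TPM at 4 h, with 5 lower and 1 higher, Cdh5 (1.96). Of 8 microglia genes 5 were lower at 4 h, with -5.26 for Gpr34, -2.55 for Cx3cr1 and -1.70 for P2ry12. Of 6 genes of perivascular macrophages 3 were higher, Lyve1 (0.95), Pf4 (0.92, counted among the platelet genes too), and Mrc1 (0.91), and 1 was lower, Stab1 (-0.66). Of 5 astrocyte genes 2 were called as higher at 4 h, Gja1 (2.81) and Aqp4 (2.49). In the normalized gene table Aqp4 was at 1250 ± 8.94 normalized counts in PBS and 1470 ± 78.1 at 4 h (mean ± SD, n = 3), a log2 ratio of 0.23, so the call for Aqp4 rests on the summed transcripts alone. The calls among 7 mural genes were 2 lower at 15 min, Acta2 and Myh11, and those among 5 neuron genes were 2 higher at 15 min, Syt1 and Slc17a7. Of 11 ligand and vessel-side adhesion genes, 4 were higher at 15 min, 7 at 30 min, and 9 at 4 h (2, 1, and 1 were lower), among them Sele and Selp, the endothelial selectins on which neutrophils roll, at 9.96 and 10.71. Of these 11 genes Cxcl3 and Cxcl5 passed the filter only through 4 h libraries, and of the other 9, 7 were higher at 4 h. The size of the Selp rise differed between tables: in the normalized gene table it went from 60.5 ± 90.5 in PBS to 18600 ± 129 normalized counts (mean ± SD, n = 3), a log2 ratio of 8.27, with PBS libraries spread from 0.237 to 4.90 TPM.

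The genes whose pattern over the 12 libraries was most like the mean of the 8 tested neutrophil genes were Arfgef1 (Pearson r = 0.996), Xrn1 (0.996), Bach1 (0.996), Rnf139 (0.995), and Ifi203 (0.994). They rose at 4 h by 0.74, 1.66, 1.70, 1.35, and 3.70 on the log2 scale. With 1 group of 3 libraries standing apart, 148 of 16297 genes compared had an r of at least 0.99, so the measure ranks any gene that moved at 4 h alone. The tested neutrophil genes themselves had r of 0.964 to 0.99 with this mean, except Mmp25 at -0.469. Each of them is part of the mean, and Retnlg, Ngp, and Camp entered the test only through their 4 h libraries. A high r was thus partly built in and is no evidence that the genes move together.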

How the data were processed

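RNA from cerebral vessels was prepared as unstranded SMART-Seq v4 and Nextera XT libraries. The authors ran Salmon 1.2.1 and imported the estimates to genes of GRCm38.p6. The deposited files hold Salmon's estimated counts (assigned fragments) and TPM per transcript, and the deposited gene table holds a signal, counts that the authors normalized with DESeq2 size factors and transcript lengths. No per-library column was left unmapped (0). Transcripts were joined to GENCODE M21, and estimated counts were summed and rounded; 0.482% to 0.850% of the fragments of a library did not join. Tests used edgeR 4.0.16 (R 4.3.3) with TMM factors (mean 1.17 in PBS and 0.717 at 4 h), a filter (filterByExpr, minimum count 10, total 15, share 0.7) that kept 19150 genes, all 12 libraries in 1 quasi-likelihood fit, glmTreat against 1.5-fold, and Benjamini-Hochberg adjustment. The SE is the log2 fold change over the root of the quasi-likelihood F, which can be too small for large changes from few counts. CPM used TMM-scaled library sizes. DESeq2 1.42.0, limma 3.58.1, and other settings were alternatives. The pipeline was tested on simulated data. A 3 against 3 exact permutation test of 1 gene cannot go below 0.1, so none was run. For 8 of the 10 genes the gene table departed from the summed counts by at most 0.10 on the log2 scale, for Csf3r by 0.35, and for Mpo, with few fragments, by 0.89.

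The 10 genes and the lists were chosen with earlier results of these data known. Named genes were all 10; from each other list the called genes where 3 or fewer, otherwise the 3 with the largest change at 4 h, and the most abundant; the ligands of Csf3r and Cxcr2; and the 5 genes most like the mean. The others (Asprv1, Olfm4, Itgb2l, Elane, Ctsg, Prtn3, Prss57, Ccr2, Sele, Selp, and those counted as not tested) were named after their values were seen. Some listed genes are counted in their lists and not reported here by name.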

Additional observations from a re-analysis of the deposited data

Results flagged for a closer look

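Effects of LPS that differed between times in a direct test are listed here, since the same contrast with PBS gave different values. Between 15 and 30 min S100a9 differed by 2.35 and S100a8 by 1.71 on the log2 scale (edgeR adjusted p = 4.50e-06 and 0.0102), higher in 3 of 3 libraries at 30 min than in any library at 15 min. Between 30 min and 4 h the differences were 5.76 for S100a9, 5.64 for Ngp, 5.42 for Retnlg, 5.22 for S100a8, 3.73 for Camp, 3.18 for Csf3r, and 2.51 for Cxcr2, with all 4 h libraries above all 30 min libraries. Of these genes, Retnlg, Ngp, and Camp entered the test only through their 4 h libraries and so had to differ there. Groups of 3 libraries are too small to look for single outlying libraries by the gap to the nearest value.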

How the results depend on the processing

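Against PBS, 7 genes at 4 h and 1 at 15 min were called, and 7 between 4 h and 30 min, and these counts stayed within 1.5 times under every alternative run except that limma with 10 added called 0 at 15 min. Both counts of 7 include Retnlg, Ngp, and Camp, which entered the test only through their 4 h libraries and so had to differ there. At 30 min against PBS the count of 0 became 3 with no fold limit and ran from 0 to 1 with a library left out (1 without LPS 30 min library 2). Between 15 and 30 min the count of 2 became 1 in DESeq2, in limma with 1 added, and in limma with 10 added, and ran from 1 to 2 with a library left out. Library numbers shared between groups did not pair the libraries: deviations of same-numbered libraries correlated at -0.0489 to 0.0679 in 18 comparisons, and with the number as a replicate block the counts were 1, 0, and 7 against PBS in order of time, 2 between 15 and 30 min, and 7 between 30 min and 4 h. Signs turned only for changes that were never called, near 0 for Csf3r and Mmp25 and on few fragments for Ngp and Retnlg. Csf3r at 15 min (0.01) was -0.01 in DESeq2, with RLE factors, and with library size only. It was -0.09 with a length offset and in limma with 10 added, -0.10 in limma with 1 added, and -0.14 to 0.17 with a library left out. With a library left out, Mmp25 at 15 min (-0.00479) ran from -0.16 to 0.13. Ngp at 15 min (0.42) then ran from -0.72 to 1.52, and Retnlg at 30 min (0.18) from -0.37 to 0.84. Fits of only the 15 or 30 min and PBS libraries could not test Camp, Ngp, and Retnlg, which then fell under the filter. The causes of these shifts were not tested. Depth limits what can be said of Ly6g and Mpo, and before 4 h of Retnlg, Ngp, and Camp, which had at most 15 fragments in a library.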
